A study of Mus musculus with 8 samples.

Results

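The genes of the complement system were followed in the livers of mice given potassium sorbate, a preservative salt, or water. They comprise 35 genes of the 55487 in the count table, chosen by symbol: the components of the classical, lectin, alternative and terminal pathways with their regulators and receptors. Gene expression had been measured by RNA sequencing in 4 liver libraries taken 4 hours after oral gavage of 17 mg of potassium sorbate (sorbate group) and in 4 liver libraries taken 4 hours after gavage of water (control group). All animals were male C57Bl/6J mice at ~10 weeks of age, an inbred strain, and no mutation or other agent is named for either group. The series title ties sorbate to a lysine modification written by histone deacetylases and to inflammation genes, and the comparison addressed here is which complement transcripts differed after sorbate.

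Complement is a cascade of blood proteins that marks microbes and debris for uptake and can open pores in membranes. Antibody-bound C1q, or lectins that bind sugars, activate proteases that cut C4 and C2, and the alternative pathway amplifies the cut of C3 on surfaces. Fragments of C3 and C5 signal through receptors on leukocytes, C5 to C9 build the membrane pore, and soluble and membrane-bound regulators hold the cascade in check. Hepatocytes secrete most of the components and raise several of them in the acute-phase response, whereas the chains of C1q, properdin and ficolin A come mainly from macrophages, in liver the Kupffer cells. The genes were therefore sorted, from this general knowledge and not from these libraries, into a hepatocyte class of 22, a macrophage class of 7 and a class of 6 with other or mixed sources.

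The libraries held 15773932 to 25844731 counts. Markers of hepatocytes added up to between 80847 and 105423 CPM (counts relative to the library size after trimmed-mean scaling) in the sorbate group and between 84469.5 and 102051 CPM in the controls, so the tissue matched its label in every library. Control 2 stood apart from the other controls. A first principal component with 53.6% of the variance placed sorbate livers at −37.8 to −21.9 and control 2 at −15.4, against 42.1 to 49.1 for controls 1, 3 and 4. On this component it lay nearer to the sorbate libraries than to its own group, and whether its label is right was not tested. Control 2 lay below all other controls in 19 of the 34 complement genes tested, among them all 7 of the macrophage class, and above them in 11. Results that rest on it are therefore given with and without it.

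Several complement transcripts were lower in sorbate livers, among them those of mannose-binding lectin A, the C4b-binding protein and 2 of the 3 chains of C1q. Of the 34 genes tested, 7 fell and 0 rose at an adjusted p under 0.05 (quasi-likelihood test of edgeR, Benjamini-Hochberg adjusted across the table), which is 20.6% lower. Across all 13312 genes tested, 12.4% passed, 6.30% lower and 6.14% higher. The 7 genes were Mbl1, C4bp, Hc, Cfi, C1qb, C1qc and Cd55. Of the 34 genes, 15 were lower and 1 was higher at an unadjusted p under 0.05, where 15.3% of all genes were lower and 14.2% higher. DESeq2 called 14 of them lower and 1 higher, against 9.34% of all genes lower and 9.07% higher. limma-voom called 6 lower and 0 higher, against 5.34% of all genes lower and 6.81% higher. The median log2 fold change of the 34 genes was −0.34, from −1.04 to 0.55, against −0.02 for all genes tested, and 25 of the 34 had a negative value. In 8 genes, all of the hepatocyte class, every sorbate library lay below every control, and in 0 genes above, where 8.32% of all genes tested showed the first pattern and 9.42% the second. Without control 2 the test called 14 complement genes lower and 1 higher, where 14.1% of all genes were then lower and 15.1% higher. Without sorbate 2 it called 5 lower and 1 higher, against 572 lower and 555 higher over all genes. Without any 1 of the remaining libraries it called 2 lower and 0 higher, against 357 to 492 lower and 332 to 481 higher over all genes.

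**Figure D1:**
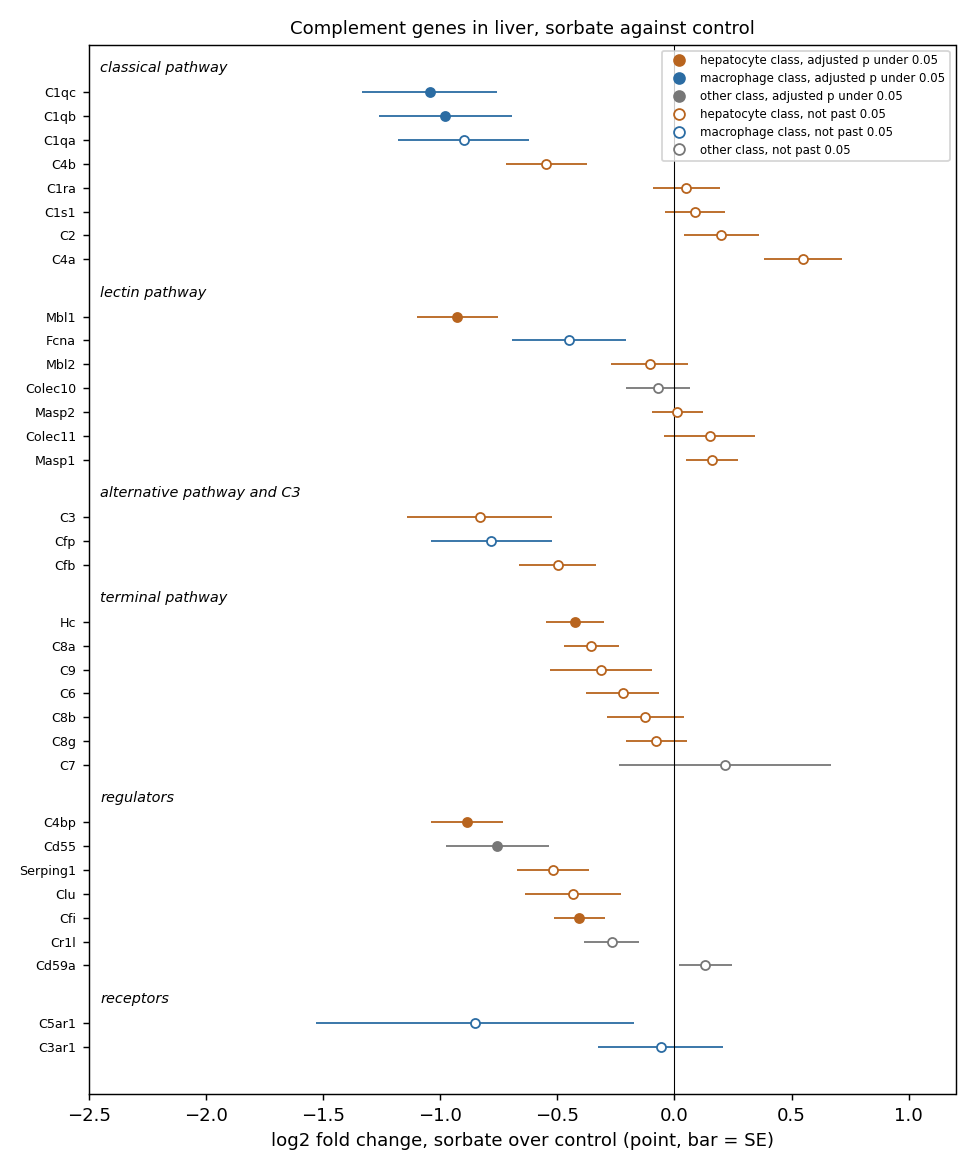
Log2 fold change of each of the 34 complement genes tested, sorbate over control (points, bars are the SE; n = 4 libraries each), sorted by pathway and coloured by cell class, filled where the adjusted p was under 0.05. The 7 filled points all lie left of 0, from −1.04 (C1qc) to −0.41 (Cfi).

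Genes of both main cell classes fell. In the hepatocyte class 4 of 22 genes fell (Mbl1, C4bp, Hc and Cfi), with a median log2 fold change of −0.27. In the macrophage class 2 of 7 fell (C1qb and C1qc), all 7 values were negative, and their median was −0.85. The remaining class had 1 lower gene, Cd55, of 5 tested and a median of −0.07. Whether the classes differed from each other was not tested. In 8 of the 22 hepatocyte genes every sorbate library lay below every control. The macrophage class had 0 such genes of 7, which is near the share of 8.32% over all genes tested. Control 2 fell inside the range of the sorbate libraries for all 7 macrophage genes. Without control 2, 8 genes of the hepatocyte class and 5 of the macrophage class were lower and 1 of the hepatocyte class was higher. Over all genes, 14.1% were then lower and 15.1% higher.

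**Figure D2:**
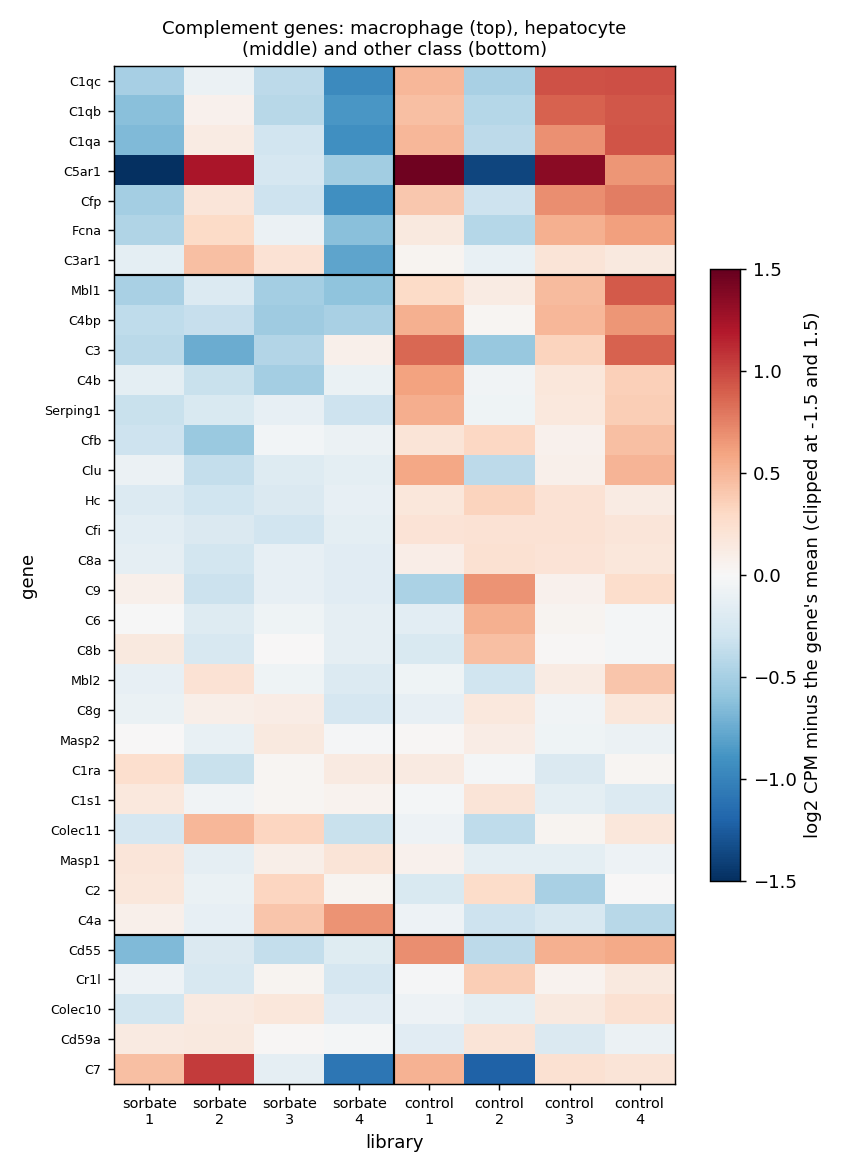
Log2 CPM of the 34 complement genes tested in each library (columns, sorbate libraries left, controls right) minus the gene's mean over the 8 libraries, with colour clipped at both ends of the scale and genes sorted by fold change within macrophage, hepatocyte and other class. Controls 1, 3 and 4 are red across the macrophage genes with the exception of C3ar1, and control 2 is blue there.

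Sequence is shown for the genes with the steadiest calls and for the neighbouring C1q genes. The windows are the 250 bases before the transcription start in RefSeq on GRCm38.p6, written along the gene. The window of Mbl1 is chr14:41151206-41151455 on the plus strand and that of C4bp chr1:130661619-130661868 on the minus strand. The window of C1qb is chr4:136886201-136886450 and that of C1qc chr4:136892915-136893164, both on the minus strand. Capitals mark GAGGAA, the core bound by PU.1, a transcription factor of macrophages, on either strand.
Mbl1: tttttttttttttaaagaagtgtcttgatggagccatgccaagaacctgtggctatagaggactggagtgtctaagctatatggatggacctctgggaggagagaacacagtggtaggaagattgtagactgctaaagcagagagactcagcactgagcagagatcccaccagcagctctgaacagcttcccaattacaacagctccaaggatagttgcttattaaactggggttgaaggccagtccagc
C4bp: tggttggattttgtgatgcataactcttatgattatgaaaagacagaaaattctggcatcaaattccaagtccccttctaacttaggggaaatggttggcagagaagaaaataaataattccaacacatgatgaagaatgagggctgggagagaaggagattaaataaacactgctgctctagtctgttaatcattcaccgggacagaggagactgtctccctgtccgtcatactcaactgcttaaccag
C1qb: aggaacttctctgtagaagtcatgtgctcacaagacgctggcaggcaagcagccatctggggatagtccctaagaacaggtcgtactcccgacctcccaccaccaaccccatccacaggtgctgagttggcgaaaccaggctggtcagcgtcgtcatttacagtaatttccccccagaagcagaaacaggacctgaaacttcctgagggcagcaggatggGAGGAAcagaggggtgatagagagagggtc
C1qc: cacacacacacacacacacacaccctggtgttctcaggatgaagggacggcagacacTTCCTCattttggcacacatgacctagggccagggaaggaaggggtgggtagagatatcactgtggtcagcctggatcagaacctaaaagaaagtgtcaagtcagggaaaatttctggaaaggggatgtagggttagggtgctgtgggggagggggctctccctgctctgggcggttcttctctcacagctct
In C1qb the core begins 30 bases before the start, and in C1qc its reverse complement TTCCTC begins 193 bases before it. Start sites of RefSeq and GENCODE differ for some genes, and the window of C1qc reaches into the gene as GENCODE draws it. Of the 25 complement genes with a window, 4 (C1qb, C1qc, Fcna and Cd59a) held GAGGAA on either strand, where 23.3% of all 32851 windows did. The windows of Cfp, C3ar1 and C5ar1, also of the macrophage class, did not. The STAT motif TTCNNNGAA was in 4 of the 25 (C7, C8a, Masp2 and Colec11) against 7.02% of all windows. The C/EBP motif TTGCNNAA was in 3 (C1s1, C3 and C9) against 9.56%, both searched on either strand. In the main edgeR test, no gene with a STAT or C/EBP match was called lower or higher. Under other settings C3 was called lower without control 2 and in DESeq2, and C8a in DESeq2 and limma-voom. Cfi and C1qa had no window. The windows of Mbl1 and C4bp held none of these motifs, and a match is only a description of the window.

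In the lectin pathway, 1 of 7 genes fell, where 6.30% of all genes tested did. This single call is no result about the pathway as a whole. Mbl1, at chr14:41151458-41159601 on GRCm38, encodes mannose-binding lectin A, a secreted lectin that recognises sugars on microbes. It had 181, 218, 178 and 166 CPM in the sorbate livers, against 308, 276, 350.1 and 478 CPM in the control livers. Every sorbate library lay below every control, and control 2 was the lowest control. The log2 fold change was −0.93 (SE 0.17, adjusted p = 0.00924), and Mbl1 passed in each of the 8 fits that left out 1 library, at −1.02 to −0.74.

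Mbl2 encodes mannose-binding lectin C, the second lectin of this kind in mice. Its libraries ran in the same order as those of Mbl1 within the controls. It had 298, 377, 309.6 and 282 CPM with sorbate, against 309, 264, 354 and 434 CPM in the controls, and the groups overlapped (log2 fold change −0.10, SE 0.16, adjusted p = 0.711). The ratio of Mbl1 to Mbl2 reads was chosen after these values had been seen and is given with no test. It was 0.608, 0.579, 0.574 and 0.589 in the sorbate libraries and 0.996, 1.04, 0.989 and 1.10 in the controls. The groups lay apart, with control 2 among the other controls. Per transcript length, Mbl1 stood at 287 ± 39.2 TPM, a length-corrected level, in the sorbate livers and 489 ± 91.2 TPM in the controls, and Mbl2 at 704 ± 103 TPM in the sorbate livers and 681 ± 107 TPM in the controls (SD, n = 4 each).

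The other lectin-pathway genes did not pass the test. Fcna, which encodes the macrophage lectin ficolin A, had 18.1 to 34.1 CPM with sorbate, against 20.8 to 43.0 CPM in the controls (log2 fold change −0.45, SE 0.24, adjusted p = 0.249). It passed without control 2, at −0.61 (adjusted p = 0.0370). Masp1 and Masp2 encode the proteases that the lectins activate, and their log2 fold changes were 0.16 and 0.01. For Masp2, 54.9% of the exon bases overlap Tardbp on the opposite strand, so its reads could not be assigned with certainty. The collectin genes Colec10 and Colec11 had log2 fold changes of −0.07 and 0.15, and the adjusted p of these 4 genes ran from 0.361 to 0.952.

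**Figure D3:**
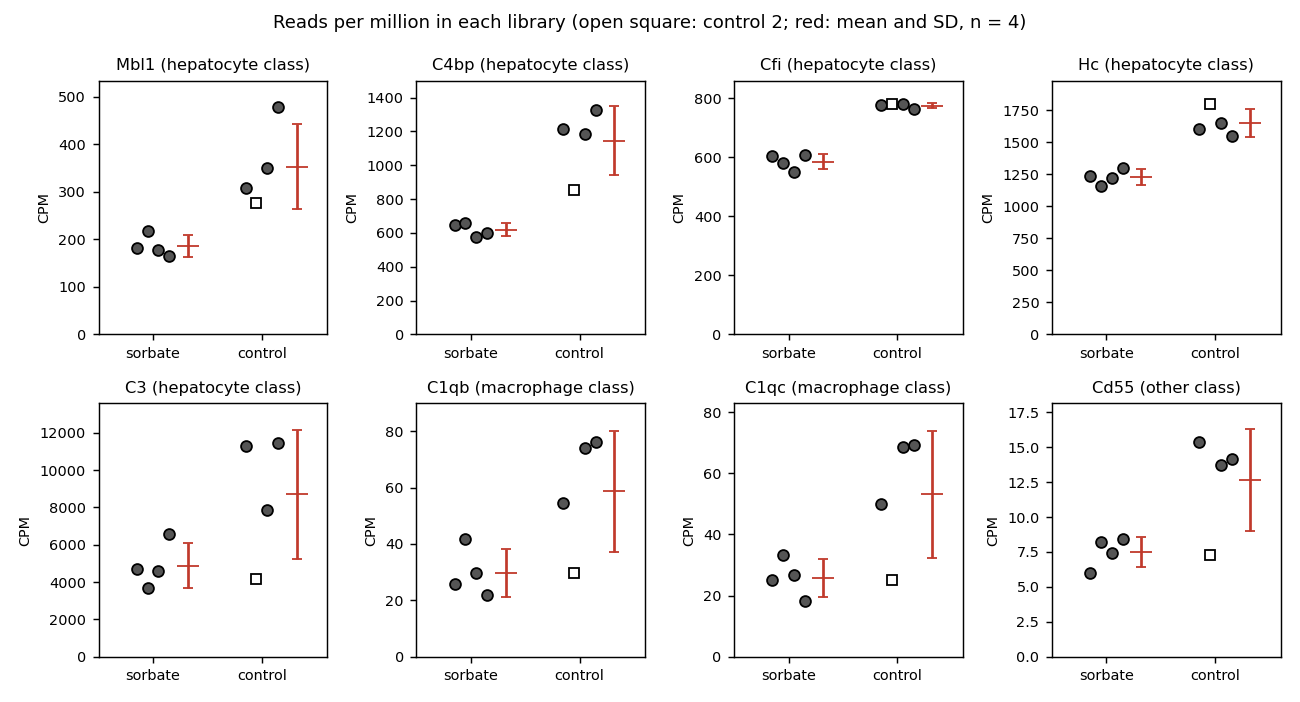
CPM of 8 complement genes in each library, sorbate left and control right (points are libraries, the open square is control 2, red marks are the mean and SD of 4). Sorbate and control do not overlap for Mbl1, C4bp, Cfi and Hc, and control 2 lies among the sorbate libraries for C3, C1qb, C1qc and Cd55.

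Among the regulators, 3 of 7 genes (42.9%) fell, where 6.30% of all genes tested did. C4bp (chr1:130634773-130661632), the C4b-binding protein that circulates and helps to inactivate C4b, had 644, 660.1, 578 and 599.6 CPM in sorbate livers. The control livers had 1216, 855, 1186 and 1326 CPM. All sorbate libraries lay below all controls, again with control 2 as the lowest control. C4bp fell by 0.88 on the log2 scale (SE 0.15, adjusted p = 0.00641) and was called in each of the 8 leave-outs at −0.99 to −0.81. Together with Mbl1 it was 1 of only 2 complement genes called in every leave-out.

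Cfi (chr3:129835884-129875332) encodes factor I, the protease that cuts C3b and C4b with the help of such cofactors. It had 602, 581, 551 and 607 CPM with sorbate, against 775, 781, 779.5 and 764 CPM in the controls. The 4 controls were within a narrow range, control 2 included, and all lay above the sorbate libraries. Cfi fell by 0.41 on the log2 scale (SE 0.11, adjusted p = 0.0353). That call held only without control 2 among the leave-outs (adjusted p = 0.0180) and was lost without any of the other 7 libraries, where the adjusted p rose to at most 0.114 at log2 fold changes within −0.42 to −0.37.

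Cd55 (chr1:130439027-130462744) encodes decay-accelerating factor, a membrane-anchored regulator found on many cell types. It had 6.02, 8.18, 7.41 and 8.40 CPM in sorbate livers, against 15.4, 7.26, 13.7 and 14.1 CPM in control livers. Control 2 lay within the sorbate range and the other 3 controls above it. The log2 fold change was −0.76 (SE 0.22, adjusted p = 0.0478), and −0.94 without control 2 (adjusted p = 0.000511). The call was lost without any other library, with a value as small as −0.65 and an adjusted p of up to 0.127.

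Serping1, the C1 inhibitor that blocks the first proteases, had 867 to 1005 CPM with sorbate and 1043 to 1598 CPM in the controls. The groups did not overlap, but the adjusted p was 0.0515 (log2 fold change −0.52, SE 0.15), and 0.00514 without control 2. Both DESeq2 and limma-voom called Serping1 lower. Clu encodes clusterin, a soluble inhibitor of the membrane pore, and had 1278 to 1541 CPM with sorbate, against 1244 to 2447 CPM in the controls, where control 2 was the lowest (log2 fold change −0.43, adjusted p = 0.191). Without control 2 the value of Clu was −0.58 (adjusted p = 0.0120). The membrane regulators Cr1l, known in mice as Crry, and Cd59a had log2 fold changes of −0.27 and 0.13, with adjusted p of 0.154 and 0.468.

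In the classical pathway, 2 of 8 genes (25.0%) fell, both of them chains of C1q, where 6.30% of all genes tested fell. C1q is built from chains A, B and C, whose genes C1qa, C1qc and C1qb lie next to each other at chr4:136880129-136898803. C1qb had 25.8, 41.7, 29.8 and 21.8 CPM in the sorbate livers, against 54.6, 29.7, 73.9 and 76.3 CPM in the control livers. C1qc had 25.0, 33.2, 26.8 and 18.1 CPM in the sorbate livers, against 49.8, 25.2, 68.6 and 69.2 CPM in the control livers. In both genes control 2 lay within the sorbate range, and controls 1, 3 and 4 lay above every sorbate library. The log2 fold change was −0.98 for C1qb (SE 0.28, adjusted p = 0.0477) and −1.04 for C1qc (SE 0.29, adjusted p = 0.0401).

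C1qa had 21.8, 37.4, 28.2 and 18.3 CPM with sorbate, against 48.8, 26.3, 55.6 and 66.5 CPM in the controls, the same order of libraries within the sorbate group. It missed the threshold, at −0.90 (SE 0.28, adjusted p = 0.0609), while DESeq2 called it lower and limma-voom did not. Without control 2 all 3 chains were lower, at −1.09 for C1qa, −1.18 for C1qb and −1.26 for C1qc (adjusted p = 0.00238, 0.00108 and 0.000428). C1qb and C1qa passed also without sorbate 2. Leaving out sorbate 2 ended the call of C1qc and not that of C1qb, and leaving out any 1 of the other 6 libraries ended both. The smallest values were −0.82 for C1qb and −0.89 for C1qc, both without control 4, with an adjusted p of up to 0.137 and 0.120. The chains kept similar proportions, with 0.838 to 0.946 C1qa reads per C1qb read with sorbate and 0.753 to 0.894 in the controls.

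Markers of Kupffer cells moved with the C1q chains. All 10 markers had negative log2 fold changes, with a median of −0.90, and 5 of the 10 fell, where 6.30% of all genes tested did. Their sum was 179 to 334 CPM with sorbate and 429 to 562 CPM in controls 1, 3 and 4, with 240.04 CPM in control 2. The C1q chains summed to 58.2 to 112 CPM with sorbate and to 153 to 212 CPM in those controls, with 81.2 CPM in control 2. Per read of the Kupffer markers there were 0.325 to 0.346 C1q reads with sorbate and 0.353 to 0.388 in controls 1, 3 and 4. Control 2, at 0.338, lay within the sorbate range, and this ratio was not tested. In bulk tissue, fewer cells of a type and less RNA per cell cannot be told apart.

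Markers of monocytes and neutrophils were low in the same libraries. The counts of markers that fell stand beside 6.30% of all genes tested. The monocyte markers, of which 1 of 4 tested fell, summed to 5.29 to 14.7 CPM with sorbate and to 9.11 to 26.0 CPM in the controls. The neutrophil markers, of which 2 of 3 tested fell, summed to 1.03 to 3.11 CPM with sorbate and to 2.07 to 25.2 CPM in the controls, with control 2 the lowest control in both lists. Ly6g, a defining neutrophil gene, had 0 counts in all sorbate libraries and 3, 0, 4 and 4 in the controls, too few to be tested. Sinusoidal endothelial markers summed to 96.4 to 120.2 CPM with sorbate and to 174 to 198 CPM in controls 1, 3 and 4, with 91.5 CPM in control 2. All 6 of these markers had negative log2 fold changes, and 1 of the 6, Clec4g, fell. Clec4g had 27.9 to 33.6 CPM with sorbate and 66.3 to 75.4 CPM in controls 1, 3 and 4. The other 5 markers had adjusted p of 0.113 to 0.553. Cholangiocyte markers, with 27.5 to 42.3 CPM in the sorbate livers against 51.95 to 248 CPM in the controls, and red cell markers, with 221 to 315 CPM in the sorbate livers against 285 to 1051 CPM in the controls, each had 2 lower genes, of 4 and 3 tested. Both lists split: the cholangiocyte sum was mostly Spp1, which fell with Sox9, while Krt19 and Epcam had log2 fold changes of 1.03 and 0.06 (adjusted p = 0.113 and 0.942). The lower red cell genes were the globins Hba-a1 and Hbb-bs, and Alas2 had a log2 fold change of 0.37 (adjusted p = 0.0795). Stellate cell markers summed to 183 to 293 CPM with sorbate and to 162 to 259 CPM in the controls, and 0 of 8 fell. Of the 8 hepatocyte markers, 1 fell, the fibrinogen gene Fga, with 4278 to 5107 CPM in the sorbate livers and 8003 to 21310 CPM in the controls, control 2 lowest (log2 fold change −1.79, SE 0.28, adjusted p = 0.00386). Adipocyte markers summed to 1.72 to 8.53 CPM with sorbate and to 1.33 to 3.24 CPM in the controls. That sum was mostly Cidec, the only gene of its list tested (log2 fold change 0.81, adjusted p = 0.373), while Adipoq, Plin1, Lep and Retn were near 0. B, T and NK cell markers were too low to be tested. The part of these cells in the values of the complement genes was not tested.

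**Figure D4:**
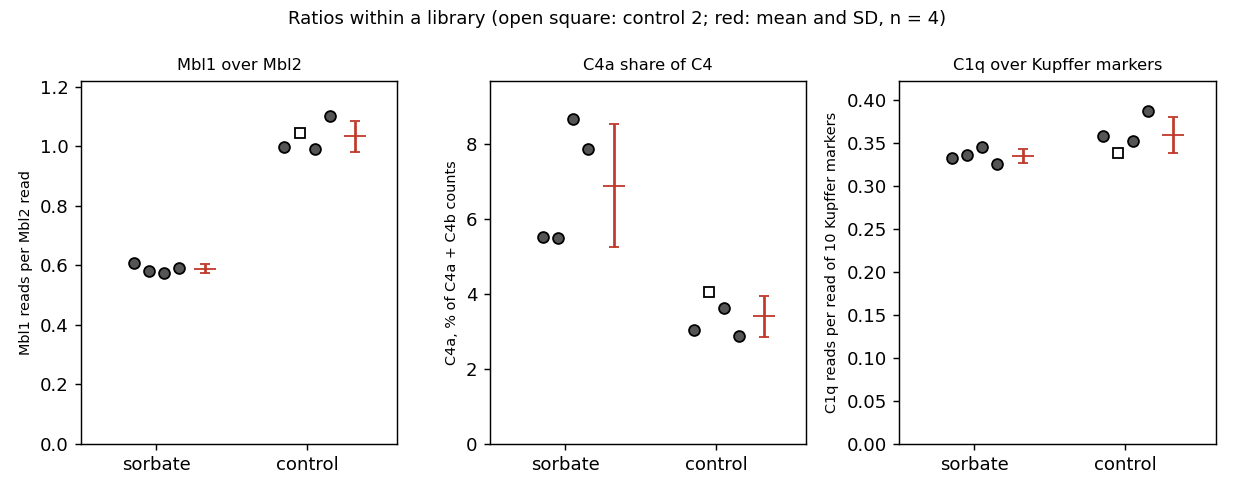
Ratios within each library, sorbate left and control right: Mbl1 reads per Mbl2 read, C4a as a percentage of C4a and C4b counts, and C1q reads per read of 10 Kupffer cell markers (points are libraries, the open square is control 2, red marks are the mean and SD of 4). The first 2 ratios separate the groups, and the third overlaps at control 2.

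C4 is cut by both the classical and the lectin pathway. Mice carry C4b, the gene of the active protein, and C4a, known as the sex-limited protein Slp, both on chromosome 17. C4b lies at chr17:34728380-34743882 and C4a at chr17:34809092-34823464, where GENCODE vM21 lists it as a processed transcript. C4b had 1693, 1486, 1314 and 1748 CPM in sorbate livers, against 2829, 1797, 2105 and 2383 CPM in control livers. C4a had 98.7, 86.4, 125 and 149 CPM in sorbate livers, against 88.6, 75.7, 79.2 and 70.4 CPM in control livers. The sorbate libraries lay below all controls for C4b, and for C4a they lay above all controls with the exception of sorbate 2. Neither gene passed the main edgeR test, with log2 fold changes of −0.55 for C4b (SE 0.17, adjusted p = 0.0638) and 0.55 for C4a (SE 0.17, adjusted p = 0.0554). Of 8 other settings that kept all libraries, 4 called C4a higher and 2 called C4b lower, DESeq2 among both, and limma-voom called neither. C4a was the 1 complement gene called higher in those settings. Without control 2 both passed, at −0.63 (adjusted p = 0.00846) and 0.54 (adjusted p = 0.0379), and C4a passed also without sorbate 2, at 0.66 (adjusted p = 0.0327).

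As a share of the reads of both genes, C4a took 5.51%, 5.49%, 8.67% and 7.87% in the sorbate libraries and 3.04%, 4.04%, 3.63% and 2.87% in the controls. The groups lay apart, and this share too was chosen after the values had been seen and was not tested. The genes are close copies. Their longest transcripts in GENCODE vM21 were identical at 96.1% of 5367 aligned bases, with 207 substitutions. Of all 50-base stretches in their transcripts, 30.6% of those of C4a and 34.6% of those of C4b occur in the other gene, so reads from these could be dropped or assigned to either. The 60-base stretch of C4b's coding sequence that differs most from C4a shows where reads could tell them apart, with the 13 differing bases in capitals. It covers bases 2755 to 2814 of the C4a transcript and 2761 to 2820 of the C4b transcript.
C4a: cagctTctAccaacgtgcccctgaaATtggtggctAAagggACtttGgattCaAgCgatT
C4b: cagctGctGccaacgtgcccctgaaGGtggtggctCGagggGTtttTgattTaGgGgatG

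The other classical-pathway genes did not pass the test. C1ra and C1s1, which encode the proteases carried by C1q, had log2 fold changes of 0.05 (SE 0.14, adjusted p = 0.841) and 0.09 (SE 0.13, adjusted p = 0.680). C2, whose product forms the C3-cutting enzyme with C4b, had 28.2 to 37.8 CPM with sorbate, against 21.6 to 36.6 CPM in the controls (log2 fold change 0.20, SE 0.16, adjusted p = 0.436). Copies limit these values as well: C1ra shares 48.0% of its 50-base stretches with C1rb and C1s1 21.9% with C1s2. For C2, 42.8% of the exon bases are also annotated to the overlapping gene Gm20547, which is listed at 0 in all 8 libraries.

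C3 (chr17:57203970-57228136) is the convergence point of all pathways and was the most abundant complement transcript. It had 2306 ± 619 TPM in the sorbate livers and 3690.5 ± 1426 TPM in the controls (SD, n = 4 each), and ranked 59 among all genes by mean TPM in the sorbate livers and 44 in the controls. In CPM it had 4691, 3709.6, 4574 and 6563 with sorbate, against 11298.5, 4172, 7846 and 11455 in the controls. Control 2 lay within the sorbate range and the other 3 controls above all sorbate libraries. The difference did not pass (log2 fold change −0.83, SE 0.31, adjusted p = 0.101), whereas without control 2 it was −1.05 (adjusted p = 0.00293). The other 7 leave-outs gave no call.

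In the alternative pathway, 0 of 3 genes tested passed in edgeR, although all 3, C3 among them, were lower at an unadjusted p under 0.05. Over all genes, 15.3% were lower by that measure. DESeq2 called 3 lower and limma-voom 0, against 9.34% and 5.34% of all genes. Cfb, which encodes factor B, the protease of the alternative C3-cutting enzyme, had 4.31 to 6.18 CPM with sorbate and 6.62 to 8.66 CPM in the controls. Its groups did not overlap (log2 fold change −0.50, SE 0.16, adjusted p = 0.0706), but 79.5% of its exon bases are shared with Gm20547, and reads that fall there could have been discarded. Cfp encodes properdin, the stabiliser of that enzyme, and had 11.9 to 25.4 CPM with sorbate and 18.2 to 38.4 CPM in the controls, with control 2 lowest (log2 fold change −0.78, SE 0.26, adjusted p = 0.0729). Without control 2 the value for Cfp was −0.95 (adjusted p = 0.00501), and Cfp passed also without sorbate 2. Cfd, which encodes factor D, a protease made mainly by fat cells, had 6, 16, 7 and 2 counts in the sorbate libraries and 11, 2, 20 and 5 in the controls. At this depth it was filtered out and no difference was detectable.

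The complement genes together took 1.81%, 1.64%, 1.72% and 1.97% of all counts in the sorbate libraries, against 2.62%, 1.95%, 2.20% and 2.59% in the controls. The highest sorbate library exceeded the lowest control, control 2. C3 alone took 0.396% to 0.684% with sorbate and 0.421% to 1.07% in the controls. Without C3 the other 34 genes took 1.24% to 1.32% with sorbate and 1.45% to 1.55% in the controls, where control 2, at 1.53%, lay among the other controls. Only the share of all complement genes together was planned, and none of these shares was tested.

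**Figure D5:**
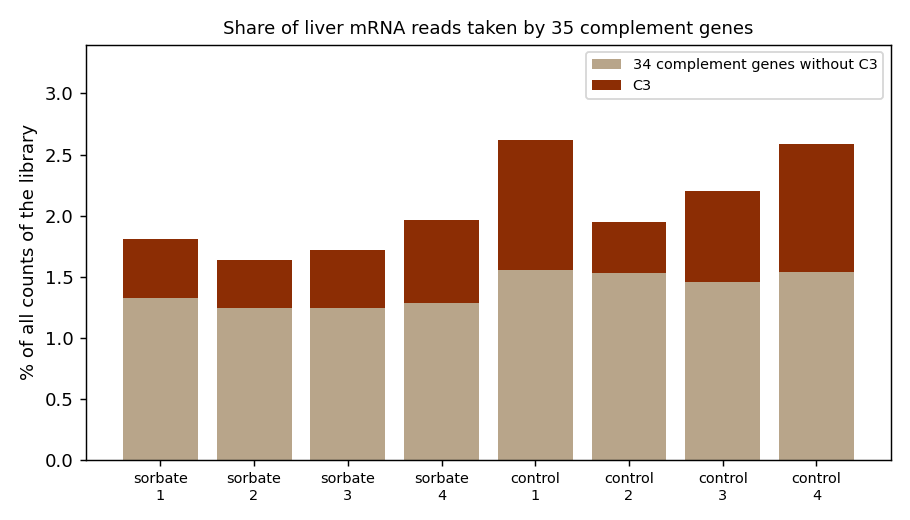
Percentage of all counts of each library taken by C3 (dark) and by the other 34 complement genes (light), sorbate libraries left and controls right. The light parts reach 1.24% to 1.32% with sorbate and 1.45% to 1.55% in the controls, while C3 in control 2 is at the sorbate level.

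In the terminal pathway, 1 of 7 genes fell, where 6.30% of all genes tested did. Here too the single call is no result about the pathway as a whole. Hc, the mouse gene of C5 at chr2:34983331-35061438, encodes the protein whose cut releases the inflammatory peptide C5a and starts the pore. It had 1234, 1158, 1223 and 1304 CPM with sorbate, against 1602, 1801, 1652 and 1549.7 CPM in the controls. All sorbate libraries lay below all controls, and control 2 was the highest control. Hc fell by 0.43 on the log2 scale (SE 0.12, adjusted p = 0.0470), and by 0.37 without control 2 (adjusted p = 0.0312). The call was lost without any of the other 7 libraries, with an adjusted p of up to 0.125.

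The remaining pore genes did not pass the main edgeR test. C8a encodes the alpha chain of C8, and its 1064 to 1177 CPM with sorbate lay below the 1384 to 1513 CPM of the controls with no overlap (log2 fold change −0.36, SE 0.12, adjusted p = 0.0728). Both DESeq2 and limma-voom called C8a lower. C8b and C8g, the genes of its beta and gamma chains, stood at −0.12 and −0.08 on the log2 scale (SE 0.16 and 0.13), with adjusted p of 0.651 and 0.731. C6 and C9, which join the pore before and after C8, had log2 fold changes of −0.22 (SE 0.16, adjusted p = 0.376) and −0.31 (SE 0.22, adjusted p = 0.367). For C9 the controls were spread widely, from 890.2 to 1976 CPM, with control 2 the highest, against 992 to 1308 CPM with sorbate. Control 2 was likewise the highest library for C6 and C8b, so it was not low throughout the hepatocyte genes. C7 had 100 counts with sorbate and 76 in the controls (log2 fold change 0.22, SE 0.45, adjusted p = 0.792).

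The receptors had few counts. C5ar1, the receptor of C5a on myeloid cells, had 2, 23, 8 and 5 counts in the sorbate libraries, against 24, 3, 23 and 14 in the controls. The groups overlapped, with sorbate 2 high and control 2 low (log2 fold change −0.85, SE 0.68, adjusted p = 0.435). C3ar1, the receptor of C3a, had 152 counts with sorbate and 141 in the controls (log2 fold change −0.06, SE 0.27, adjusted p = 0.912). In all 3 tools, 0 of these 2 genes passed, and 0 had an unadjusted p under 0.05 in edgeR.

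By level, the genes ran in the controls from C3 down to 0.680 TPM for C5ar1. After C3 came Serping1 at 1246 ± 245 TPM, Clu at 1231 ± 354 TPM and C9 at 1209 ± 389 TPM, which did not differ beyond their spread. C8a, C4b, Cfi, Mbl2, C8g, Hc and C8b followed at 880 to 525 TPM. The C1q chains were in the middle, at 117 ± 40.0 TPM for C1qb, 103 ± 31.9 TPM for C1qa and 59.96 ± 21.9 TPM for C1qc (SD, n = 4). These TPM carry no trimmed-mean factor and were not tested between the groups.

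A further list of 23 complement genes outside the 35 was read beside them, of which 18 were tested. Of these, 4 (22.2%) fell and 1 (5.56%) rose, where 6.30% of all genes fell and 6.14% rose. The median log2 fold change of the 18 was −0.28. Vtn, vitronectin, which blocks insertion of the pore, had 1833, 1786, 2031 and 1905 CPM with sorbate. The controls had 3689, 2279, 2675 and 3448 CPM, all above the sorbate libraries (log2 fold change −0.68, SE 0.17, adjusted p = 0.0311, and −0.78 without control 2, the only leave-out that kept the call).

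Vsig4 and C5ar2 were lower as well, with control 2 within the sorbate range. Vsig4, the C3b receptor of Kupffer cells and also 1 of the 10 Kupffer markers above, had 13.01, 20.4, 19.2 and 13.5 CPM with sorbate, against 28.5, 18.3, 44.4 and 44.96 CPM in the controls (log2 fold change −1.04, SE 0.27, adjusted p = 0.0326). C5ar2, the second receptor of C5a, had 18, 30, 17 and 13 counts with sorbate, against 46, 22, 42 and 49 in the controls (log2 fold change −1.15, SE 0.32, adjusted p = 0.0391). Both calls held in 2 of the 8 leave-outs, with an adjusted p of up to 0.102 for Vsig4 and 0.111 for C5ar2 in the others. C1qbp, a mostly mitochondrial protein that can bind C1q, was the 1 gene that rose, with 48.5, 42.0, 46.4 and 49.5 CPM with sorbate, against 39.3, 32.7, 38.3 and 34.9 CPM in the controls. All sorbate libraries lay above all controls (log2 fold change 0.36, SE 0.10, adjusted p = 0.0451), and the call held in 2 of the 8 leave-outs. The adjusted p of the other 13 genes tested ran from 0.132 to 0.977, and Cd55b and Fcnb were listed at 0 in all 8 libraries.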

How the data were processed

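Whole-number counts per gene were deposited by the authors with no normalization. The submitters' processing notes name HISAT2 2.1.0, Subread, FastQC, edgeR and the build GRCm38. Per the labels, poly(A) RNA was sequenced as single reads from TruSeq libraries. No source used here gives the annotation release, how reads matching several genes were counted, or whether strand was used. A further 4 columns of per-sample values belong to no labelled sample and were left out.

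Members were matched by symbol. The 35 genes, the classes, the other lists and the tests were chosen with earlier results of these data known. The rule for named genes took every complement gene past the threshold and C3, Hc, C1qa, C1qb, C1qc, C5ar1 and Cfd. Values per library of Mbl2, C4a and C4b and the 3 ratios were added after the values had been seen.

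The sorbate and control groups (4 libraries each) were compared with edgeR 4.0.16 (R 4.3.3): filterByExpr with a minimum count of 10, TMM factors, quasi-likelihood test, two-sided, Benjamini-Hochberg adjustment over 13312 genes, threshold 0.05. Standard errors follow from the coefficient and the F statistic. Other settings were DESeq2 1.42.0, limma-voom 3.58.1 with and without quality weights, other scalings and filters, a test against a 1.5-fold change, and leaving out each library. Ratios were not tested. TPM used union exon lengths from GENCODE vM21, found for 55227 of 55487 genes. The scripts were tested on simulated data. Counts per library were 15773932 to 25844731, so genes with few counts have little precision. Nothing in the labels ties each library to its own animal, so p-values measure the spread between libraries, which may be technical. Pairs within a group differed beyond sampling noise, with a chi-square per gene of 25.1 to 241. Values of 1 gene of the further complement list are not reported here.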

Additional observations from a re-analysis of the deposited data

Results flagged for a closer look

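Of 106 groups of 4 libraries looked at (the complement genes and the further complement list), 2 held 1 library far from the other 3 by Dixon's criterion, where chance gives about 1 in 20. Cfhr2, a gene of the further list, had 344.9 CPM in sorbate 2, against 407 to 415 CPM in the other sorbate libraries. Itgax, the alpha chain of complement receptor 4, had 0.0559 CPM in control 2, against 0.774 to 0.885 CPM in the other controls.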

How the results depend on the processing

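Among the alternatives run, no direction of a called complement gene reversed. Mbl1 and C4bp were called in all 8 leave-outs and in 7 of 8 other settings, the exception being the test against a 1.5-fold change. C1qb, C1qc and Cd55 lost their calls with library size alone and limma-voom, and Hc and Cfi with library size alone and no filter. Leaving out 1 library gave 332 to 2053 higher and 357 to 1915 lower genes over all genes. Complement genes then numbered 2 to 14 lower and 0 to 1 higher, of the hepatocyte class 2 to 8 lower and 0 to 1 higher, of the macrophage class 0 to 5 lower, and of the further list 0 to 7 lower and 0 to 1 higher. Leaving out control 2 gave the upper end of each count of lower genes. Scaling by library size alone moved the median of all genes to 0.11 and that of the complement genes to −0.22, with 1300 higher and 550 lower genes, 1 higher and 2 lower complement genes (1 and 2 in the hepatocyte class) and 0 lower in the macrophage class. Relative to all genes the complement median stayed negative. No filter gave 886 higher and 963 lower genes over all genes, and 1 higher and 7 lower complement genes. The higher gene and 2 of the lower ones were of the hepatocyte class, and 4 lower ones of the macrophage class. The further list then had 0 higher. DESeq2 gave 14 lower and 1 higher complement genes, 9 and 1 in the hepatocyte class and 4 lower in the macrophage class. limma-voom gave 0 lower in the macrophage class. With quality weights there were 1968 higher and 1944 lower genes, 14 lower and 1 higher complement genes, 8 and 1 in the hepatocyte class, 5 lower in the macrophage class and 7 lower in the further list. Against a 1.5-fold change, 80 genes were higher and 122 lower, with 0 lower complement genes, 0 in either class, and 0 higher and 0 lower in the further list. The cause of these shifts was not tested. Of the single-gene values under an alternative, 702 kept their side of the threshold, 40 gained a call and 86 lost one. No paired analysis was possible because replicate numbers only name libraries in accession order. Low counts limit C5ar1, C3ar1, C7, Cfb and Cfd, and copies or overlaps limit C4a, C4b, C1ra, C1s1, C2, Cfb and Masp2.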
